A study of Homo sapiens with 9 samples.

Results

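The comparison of full dose SLO with vehicle (VEH) rests on 6 of the 9 libraries sequenced, 3 from each group, chosen by treatment label alone. SLO is a cocktail of 10 µM SBI-0206965, which inhibits ULK1, a kinase that starts autophagy, with 1 µM Lopinavir, a protease inhibitor that blocks the maturation of Lamin A, and 1 µM O-151, which inhibits the DNA glycosylase OGG1, given to wild-type HMC3 cells for 6 consecutive days. VEH cells received an equivalent concentration of the solvent, DMSO, over the same days. The remaining 3 libraries came from a lower dose (5, 0.5 and 0.5 µM) and entered only the shared estimate of spread. HMC3 is a single cell line of human microglial origin. Both groups carry the large T antigen of SV40 that immortalized it, a viral protein that binds p53 and RB. The compounds were always given together, so their separate effects cannot be told apart. The labels do not say whether replicates were separate cultures, so p-values measure only the spread between these libraries, which may be technical.

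Polyadenylated RNA was sequenced, and the values below are read counts per gene scaled for library depth to CPM with edgeR's TMM factors, listed in the order of replicates 1, 2 and 3. CPM is not corrected for gene length, so it is compared between groups and not between genes. Libraries held 15757312 to 19674841 reads on genes in VEH and 14834295 to 16443926 in SLO, and 14727 of 61544 listed genes passed the expression filter. A gene was called at an adjusted p below 0.05 in edgeR's quasi-likelihood test, adjusted over those 14727 genes by the Benjamini-Hochberg method. By that rule 64.9% of tested genes were called, 32.9% as higher in SLO and 32.1% as lower, and for 66.7% the CPM ranges of SLO and VEH were separate. Called genes with a log2 fold change above 1 made up 9.61% and those below −1 made up 2.20%. Counts of members in gene families are read against those shares and against the median log2 fold change of all tested genes, 0.014. A member that reached the filter only where it was high had to differ, so counts over the members that passed are descriptions. Reads that matched several places, 8.35% to 8.52% in VEH and 7.16% to 7.31% in SLO, were not counted, so families with near-identical copies (ribosomal proteins, histones, tubulins, HLA genes) were measured only from their distinct parts.

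Cellular senescence is a lasting exit from the cell cycle in which cells stay metabolically active. Its known features include p53-driven CDKN1A, loss of Lamin B1, a large lysosomal compartment, rearranged chromatin, and secretion of cytokines, proteases and matrix proteins. Microglia are the resident macrophages of the brain, which normally sense damage, present antigen and clear debris. Contractile and fibrillar matrix genes, by contrast, are best known from smooth muscle, pericytes and fibroblasts.

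The defining microglial genes were near 0 in these libraries. Of 25 microglia and macrophage markers, 11 had no count in any of the 6 libraries, among them CX3CR1, P2RY12, TYROBP, SPI1, C1QA, C1QB, C1QC and CD163. AIF1 and PTPRC had at most 1 count, and 19 of the 25 had at most 10 counts in every library. CSF1R, TREM2 and CD14 had 2 to 15 counts in VEH and 9 to 21 in SLO, and CD74, the invariant chain of MHC class II, had 1 count in each VEH library and 24 to 40 in SLO. CSF1R, TREM2 and CD74 reached the filter only in SLO-treated libraries, where they were higher, so no count of rises is given for this list. Fibroblast and mural cell markers had 10 rises and 2 falls (VIM and PDGFRB) among 14 tested of 19 listed. The rises include a member that passed the filter only through SLO-treated libraries. Among the 12 with at least 10 counts in every library, 9 rose and 2 fell. The 19 listed markers summed to 84848 to 100264 counts in VEH and 120052 to 130583 in SLO, most of them from COL1A1, VIM and TAGLN. The fibroblast markers COL3A1, DCN, LUM, FAP and POSTN, 5 of the 19, had at most 10 counts in every library. In bulk RNA, more cells of a type and more RNA per cell cannot be told apart.

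Among the 2765 genes that reached 100 CPM in VEH or SLO, falls outnumbered rises. The test called 83.7% of them, 803 as higher in SLO (29.0%) and 1512 as lower (54.7%), with a median log2 fold change of −0.147. Large changes, 4.12% of these genes, ran the other way, with 81 called above 1 on the log2 scale (2.93%) and 33 called below −1 (1.19%). ANKRD1 (chromosome 10, 90912096 to 90921087), a cardiac ankyrin repeat protein known to be induced by YAP and by stretch, was measured at 116, 141 and 149.9 CPM in the VEH libraries. In the SLO libraries it reached 921, 911 and 1018 CPM (log2 fold change 2.80 with an SE of 0.061, adjusted p = 1.36e-24), each far above every VEH library. TIMP3 (chromosome 22, 32801705 to 32863041), a matrix-bound inhibitor of metalloproteinases, was at 19.2, 20.4 and 20.6 CPM in VEH. Its SLO libraries held 129, 117 and 121 CPM (log2 fold change 2.61 with an SE of 0.0557, adjusted p = 1.32e-24), with no overlap.

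SOX4, an HMG-box transcription factor of progenitor cells, rose from 17.5 ± 0.985 to 105 ± 6.11 CPM (VEH and SLO means with SD, n = 3 each, as for all such pairs below), a log2 fold change of 2.59. LBH, a transcriptional cofactor of limb and heart development, rose from 34.7 ± 2.81 to 176 ± 7.77 CPM (2.34 on the log2 scale). CADM1, an immunoglobulin-type adhesion molecule, rose from 30.9 ± 0.863 to 143 ± 8.1 CPM, and EDN1, the precursor of the vasoconstrictor endothelin-1, from 25.2 ± 1.49 to 117 ± 9.91. PLTP, which transfers phospholipids between lipoproteins, rose from 33.0 ± 2.24 to 149.9 ± 5.07 CPM, and the secreted chaperone CLU from 19.5 ± 0.739 to 119 ± 9.87. In each of these 6 genes the lowest SLO library lay above the highest VEH library, and fold changes ranged from 2.18 (PLTP) to 2.60 (CLU) on the log2 scale.

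**Figure D1:**
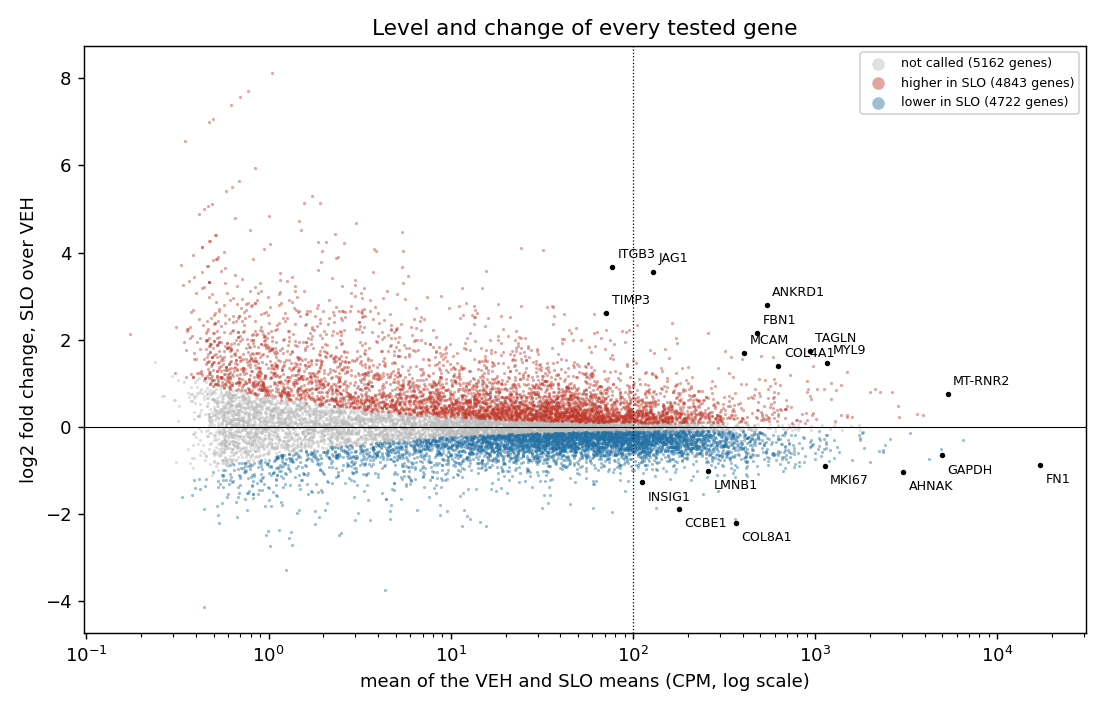
Each point is 1 of the 14727 tested genes, placed by the mean of its VEH and SLO levels (CPM, log axis) and its log2 fold change in SLO over VEH; red points were called higher, blue points lower and grey points neither. Right of the dotted line at 100 CPM, blue points are the more numerous (1512 against 803 among genes reaching 100 CPM in either group), while ANKRD1, JAG1 and ITGB3 stand highest among the labelled genes and COL8A1 lowest.

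The steepest falls among abundant genes included secreted, adhesive and chromatin proteins. HMGA1 (chromosome 6, 34236873 to 34246231), an architectural chromatin protein of proliferating cells, was at 561, 565 and 642 CPM in VEH. It was at 142, 138 and 129 CPM in SLO (log2 fold change −2.11 with an SE of 0.0501, adjusted p = 4.82e-24), each far below every VEH library. CCBE1 (chromosome 18, 59430939 to 59697662), a collagen-binding protein needed for lymphatic growth through VEGFC, was at 275, 279 and 287 CPM in VEH. Its SLO libraries lay at 76.5, 74.8 and 75.7 CPM (log2 fold change −1.89 with an SE of 0.0415, adjusted p = 1.46e-24), tightly grouped and well below. PDE1C, a calmodulin-dependent phosphodiesterase, fell by 1.94 on the log2 scale, from 122 ± 4.43 to 31.7 ± 1.11 CPM. TENM2, a teneurin adhesion receptor, fell by 1.86, from 211 ± 26.9 to 58.0 ± 3.47 CPM. CCDC80, a matrix protein, fell by 1.53, and SFRP1, a secreted WNT antagonist, fell by 1.47. OXTR, the oxytocin receptor, went from 352 ± 26.4 to 158 ± 8.18 CPM (log2 fold change −1.16, adjusted p = 3.39e-18), with no overlap between groups.

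FN1 (chromosome 2, 215360440 to 215436073), fibronectin, had the largest loss in CPM of the genes tested, at 22801, 23588 and 20327 CPM in VEH. It stood at 11631, 12346 and 12443 CPM in SLO (log2 fold change −0.87 with an SE of 0.0494, adjusted p = 3.04e-15), so that its mean dropped by 10098 CPM and every SLO library lay below every VEH library. AHNAK, a giant scaffold protein of the membrane skeleton, was at 3496, 4837 and 3992 CPM in VEH and 1880.4, 2099.9 and 2002 in SLO (log2 fold change −1.04, adjusted p = 3.44e-13), with VEH replicate 2 the highest. The largest gain was MT-RNR2, the mitochondrial large ribosomal RNA, from 3965 ± 469 to 6738 ± 360.2 CPM (log2 fold change 0.77, adjusted p = 1.84e-10).

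Genes of the actin-based contractile apparatus rose together. Of 24 smooth muscle contractile genes, 23 passed the filter, 21 rose and 2 fell, with a median log2 fold change of 0.67. Their summed level was 10237 to 10588 CPM over the VEH libraries and 16087 to 17259.6 over the SLO libraries, 1.6 times as high on average. TAGLN (chromosome 11, 117199370 to 117207464), the actin-binding protein transgelin, was at 425, 431 and 439 CPM in VEH. It was at 1473, 1373 and 1493 CPM in SLO (log2 fold change 1.74 with an SE of 0.0414, adjusted p = 4.82e-24), far above every VEH library. MYL9 (chromosome 20, 36541497 to 36551447), the regulatory light chain of smooth muscle myosin, was at 631, 621 and 612 CPM in VEH and 1714, 1647 and 1774 in SLO (log2 fold change 1.46 with an SE of 0.0406, adjusted p = 1.71e-22), again without overlap. CALD1, caldesmon, which restrains actomyosin, went from 1499.9 ± 7.03 to 2762 ± 149.9 CPM (0.88 on the log2 scale). TPM1, a tropomyosin, went from 813 ± 46.8 to 1634 ± 47.9 CPM (1.01), and VCL, which links actin to adhesions, from 658 ± 14.3 to 1140.4 ± 35.1 CPM (0.79).

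LMOD1, a leiomodin that nucleates actin in smooth muscle, was at 4.44, 3.35 and 3.92 CPM in VEH and 23.3, 22.2 and 26.9 in SLO (log2 fold change 2.62, adjusted p = 2.54e-16). SYNPO2, a Z-disc actin bundler, was at 1.27, 2.17 and 1.57 CPM in VEH and 13.4, 13.5 and 12.4 in SLO (log2 fold change 2.98, adjusted p = 1.14e-16). For both genes every SLO library was above every VEH library. MYOCD, the cofactor of serum response factor that drives smooth muscle genes, rose from 16.3 ± 2.88 to 36.5 ± 1.72 CPM (log2 fold change 1.17, adjusted p = 2.44e-13), while its relative MRTFB fell from 64.5 ± 8.24 to 46.9 ± 1.63 CPM (log2 fold change −0.46, adjusted p = 8.57e-07). SMTN, smoothelin, was the other fall of the list (log2 fold change −0.32, adjusted p = 2.73e-07). The adhesion molecule MCAM (chromosome 11, 119308529 to 119321521), typical of pericytes and smooth muscle, was at 183, 196 and 196 CPM in VEH and 629.9, 609 and 636 in SLO (log2 fold change 1.71 with an SE of 0.0415, adjusted p = 7.93e-24), well apart.

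The DNA motif bound by serum response factor, the CArG box, was searched in the 250 bases before the annotated start of genes on both strands (RefSeq, GRCh38.p14). It was found in 5 of the 19 contractile genes that passed the filter and matched that table (26.3%). Of all 27305 promoters 1.14% held it, and of the 10758 promoters of tested genes 1.0%. The promoter of SRF, which encodes serum response factor itself, is shown because it holds the motif in 2 places, from −30 to −21 and from −10 to −1 relative to the start, printed in capitals (chr6:43171019-43171268, plus strand, with no GENCODE exon in the window).

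SRF: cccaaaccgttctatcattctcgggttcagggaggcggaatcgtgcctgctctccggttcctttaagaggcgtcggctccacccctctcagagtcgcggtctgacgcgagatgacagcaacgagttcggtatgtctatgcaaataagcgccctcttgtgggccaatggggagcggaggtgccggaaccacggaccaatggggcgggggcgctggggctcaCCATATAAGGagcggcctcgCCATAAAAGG

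SRF messenger was at 63.1, 62.5 and 60.2 CPM in VEH and 77.6, 70.2 and 70.3 in SLO (log2 fold change 0.23, adjusted p = 0.000147), a small rise without overlap. TAGLN and MYL9 had no entry in the promoter table.

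The extracellular matrix changed in composition. Of 37 collagen genes 25 passed the filter, 22 rose and 2 fell (median log2 fold change 0.94; 19 of 22 rose with at least 10 counts in every library), and their summed level was 4615 to 5381 CPM in the VEH libraries and 8050.0 to 8656 in the SLO libraries. The basement membrane chain COL4A1 (chromosome 13, 110148963 to 110307157) was at 360.1, 376 and 302 CPM in VEH. It was at 904, 853 and 979 CPM in SLO (log2 fold change 1.40 with an SE of 0.0577, adjusted p = 2.22e-18), and the groups were well apart. The fibril-regulating chains COL5A1 (201 ± 34.7 to 589 ± 21.9 CPM), COL5A2 (247 ± 33.0 to 760.3 ± 46.2) and COL11A1 (291 ± 33.7 to 879 ± 56.8) rose by 1.55, 1.62 and 1.60 on the log2 scale. COL1A1, the main chain of type I collagen, was at 2340.4, 2599 and 2165 CPM in VEH and 3335, 3217 and 3374 in SLO (log2 fold change 0.48, adjusted p = 8.18e-10), a modest rise without overlap. The falls were COL8A1, a short-chain collagen of vessel walls, at 672, 574 and 573 CPM in VEH and 133, 126 and 137 in SLO (log2 fold change −2.20), and the membrane collagen COL13A1 (10.9 to 4.97 CPM, log2 fold change −1.14, adjusted p = 5.76e-09).

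Matrix glycoproteins and proteoglycans moved the same way by number but not by summed level. Of 42 tested, 33 rose and 3 fell (median 0.82), yet the sum of their CPM was 0.752 times its VEH value, and FN1, described above, was its largest member. The other falls were TNC, tenascin C (180.3 to 91.6 CPM, log2 fold change −0.98, adjusted p = 3.17e-15), and THBS1, thrombospondin 1, whose groups overlapped (log2 fold change −0.15, adjusted p = 0.0319) and whose call was lost in DESeq2 (adjusted p = 0.185). FBN1 (chromosome 15, 48408313 to 48645721), fibrillin 1 of elastic microfibrils, was at 162, 204 and 163 CPM in VEH. In SLO it was at 755, 808 and 788 CPM (log2 fold change 2.15 with an SE of 0.06, adjusted p = 1.79e-22), far above every VEH library. SPARC, a collagen-binding glycoprotein, went from 945 ± 62.1 to 1825 ± 54.7 CPM (0.95 on the log2 scale), TGFBI from 313 ± 51.6 to 668 ± 25.3 (1.10), and the laminin chain LAMC1 from 425 ± 18.5 to 675 ± 10.6 (0.67). Among proteases and inhibitors 21 of 29 rose and 4 fell. MMP2, a gelatinase, rose from 2.99 ± 0.564 to 21.4 ± 0.83 CPM (log2 fold change 2.85, adjusted p = 4.72e-18), ADAMTS5, an aggrecanase, from 26.2 ± 2.86 to 107 ± 9.93 (2.03), and ADAMTS1, a versican-cleaving relative, fell from 566 ± 18.1 to 269 ± 14.2 (−1.07).

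Enzymes that crosslink and process collagen had 8 rises and no fall among 13, with BMP1, the protease that trims procollagen, going from 26.5 ± 1.39 to 68.5 ± 2.84 CPM (log2 fold change 1.38, adjusted p = 2.13e-18). Receptors for matrix and neighbouring cells moved mostly upwards too. Of 16 integrin subunits 11 rose and 2 fell (median 0.37). Both chains of the vitronectin receptor rose, ITGAV at 267, 276 and 250.2 CPM in VEH and 493, 519 and 550.1 in SLO (log2 fold change 0.98, adjusted p = 1.86e-17), and ITGB3 at 11.9, 11.03 and 11.1 and 145, 134 and 150.7 (log2 fold change 3.66). ITGA1, a collagen receptor chain, rose from 8.77 ± 0.411 to 59.1 ± 3.56 CPM (log2 fold change 2.75, adjusted p = 4.52e-23), and ITGB8, which pairs with ITGAV to activate TGF-beta, fell from 118 ± 7.24 to 51.1 ± 3.89 (log2 fold change −1.21, adjusted p = 1.07e-17). The cadherins and protocadherins had 14 rises and 3 falls among 17 tested, out of 28 listed. Among the 14 with at least 10 counts in every library, 11 rose and 3 fell. CDH6 was at 1.97, 2.69 and 2.56 CPM in VEH and 29.1, 26.5 and 31.5 in SLO (log2 fold change 3.58, adjusted p = 1.32e-20), CDH2 (N-cadherin) went from 197 ± 10.8 to 286 ± 13.9 CPM (0.54), and CDH4 fell from 30.3 ± 0.56 to 10.7 ± 1.51 (−1.51).

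**Figure D2:**
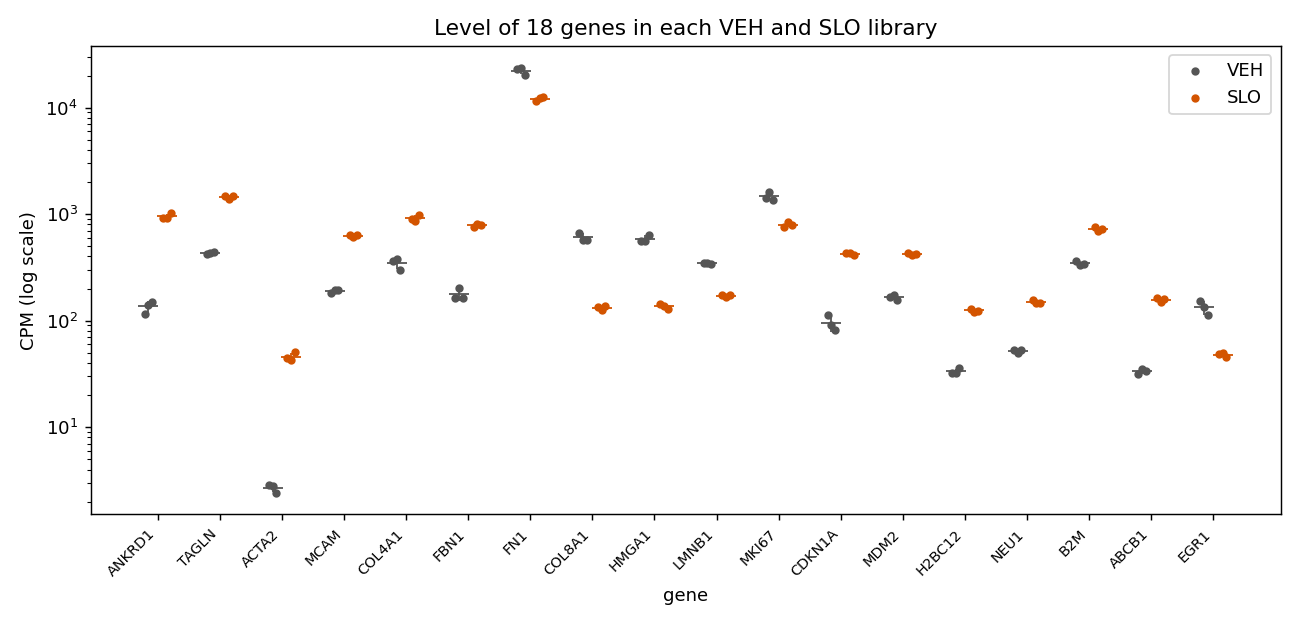
CPM (log axis) of 18 genes, with 1 point per library, grey for VEH and orange for SLO, and the mean with its SD (n = 3) as a bar with whiskers. The 2 groups do not overlap in any of the 18 genes, and replicates lie close together compared with the distance between groups.

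Genes of cell division fell almost without exception. Of 36 mitosis genes, 35 fell and none rose (median log2 fold change −0.49), and NUSAP1 was not called (log2 fold change −0.16, adjusted p = 0.621). Their summed level was 12960.0 to 13338 CPM in VEH and 9254 to 9603 in SLO, 0.718 times as high. MKI67 (chromosome 10, 128096659 to 128126423), the proliferation marker Ki-67, was at 1430.4, 1616 and 1369 CPM in VEH. It was at 753, 837 and 784 CPM in SLO (log2 fold change −0.89 with an SE of 0.0523, adjusted p = 6.38e-15), and no SLO library came near the lowest VEH value. TOP2A (chromosome 17, 40388525 to 40417896), which untangles chromosomes, was at 1999, 1977 and 1903 CPM in VEH and 1626, 1539 and 1605 in SLO (log2 fold change −0.30, adjusted p = 1.45e-07), a smaller fall without overlap. SPC24 and SPC25, subunits of the kinetochore NDC80 complex, fell by 1.02 and 0.88 on the log2 scale, the spindle protein ASPM by 0.73 and separase, ESPL1, by 0.93. CCNB1, cyclin B1, went from 519.8 ± 12.4 to 302 ± 12.4 CPM (−0.78), whereas CDK1, its kinase partner, was not called and its groups overlapped (360.4 ± 12.9 and 366 ± 15.4 CPM, log2 fold change 0.02, adjusted p = 0.652).

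The cell cycle genes homology element, with the letters TTTGAA, is known to place genes under repression by the DREAM complex. It was searched on both strands of the same 250 bases and was found in 17 of the 30 mitosis genes that matched the promoter table (56.7%). The share was 13.6% of all promoters and 8.17% of the promoters of tested genes. The promoters of MKI67 and TOP2A are shown because each holds the letters in 2 places, in capitals, on either strand (chr10:128126424-128126673 and chr17:40417897-40418146, both read from the minus strand, with no GENCODE exon in the windows). In MKI67 they lie from −47 to −42 and from −29 to −24, and in TOP2A from −194 to −189 and from −151 to −146.

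MKI67: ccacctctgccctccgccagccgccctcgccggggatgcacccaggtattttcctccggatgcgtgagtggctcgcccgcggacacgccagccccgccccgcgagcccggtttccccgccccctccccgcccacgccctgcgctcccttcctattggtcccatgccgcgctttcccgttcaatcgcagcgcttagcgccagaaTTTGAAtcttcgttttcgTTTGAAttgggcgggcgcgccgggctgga

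TOP2A: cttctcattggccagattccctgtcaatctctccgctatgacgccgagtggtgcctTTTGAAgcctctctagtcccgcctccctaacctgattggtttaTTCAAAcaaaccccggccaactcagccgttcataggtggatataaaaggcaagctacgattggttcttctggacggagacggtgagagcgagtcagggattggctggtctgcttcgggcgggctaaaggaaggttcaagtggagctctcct

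These letters are a description of the windows and were not tied to binding. Chromosome structure genes fell too. Cohesin and condensin subunits had 16 falls and no rise among 17 (median −0.47), the largest in STAG1, a cohesin subunit, from 159 ± 4.32 to 66.0 ± 2.69 CPM (log2 fold change −1.26, adjusted p = 6.23e-20). Genes of DNA replication were less uniform, with 26 falls and 7 rises among 40 (median −0.25), of which the rises numbered 4 without VEH replicate 2 and 3 without VEH replicate 3. PCNA, the sliding clamp, was at 307, 302 and 297 CPM in VEH and 328, 318 and 323 in SLO (log2 fold change 0.10, adjusted p = 0.0279), a rise whose call was lost without an expression filter (adjusted p = 0.194). MYBL2, a transcription factor of cycling cells, of the list of cyclins, CDKs and RB family genes (8 rises and 8 falls among 21), went against the division genes, from 368, 356 and 336 CPM in VEH to 564, 547 and 565 in SLO (log2 fold change 0.66, adjusted p = 2.28e-14).

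Chromatin proteins split by class. Of 59 replication-dependent histone genes only 26 passed the filter, 22 rose and 1 fell (15 and 1 of 16 with at least 10 counts in every library), and their summed level was 141 to 147 CPM in VEH and 611 to 678 in SLO. The messengers of these genes normally end in a stem-loop without a poly(A) tail and the libraries were made by poly(A) selection, so the values count the polyadenylated part of that RNA. H2BC12 (chromosome 6, 27146361 to 27146855) was at 32.2, 32.4 and 35.7 CPM in VEH and 129.9, 121 and 123 in SLO (log2 fold change 1.90 with an SE of 0.0508, adjusted p = 7.07e-23), far apart. H1-2, a linker histone, went from 22.9 ± 0.927 to 104 ± 10.8 CPM (2.18 on the log2 scale), and H2BC5 from 11.9 ± 0.348 to 71.7 ± 3.41 (2.59). H4C3 was the fall, from 3.86 to 2.01 CPM (log2 fold change −0.95, adjusted p = 0.000219). The replication-independent histones, whose messengers are polyadenylated, had 8 falls and 1 rise (H2AJ) among 11, with H3-3B at 766, 754 and 756 CPM in VEH and 509, 493 and 491 in SLO (log2 fold change −0.61, adjusted p = 2.51e-14).

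Among HMG and ANP32 chromatin proteins 10 of 12 fell and HMGN3 rose (median −0.77), and their summed level was 0.513 times that of VEH. HMGA2 went from 94.8 ± 13.8 to 26.2 ± 0.753 CPM (−1.86 on the log2 scale) and ANP32B, a histone chaperone, from 501 ± 6.66 to 227 ± 4.81 (−1.14). The nuclear lamina and envelope list had 3 rises and 9 falls among 17 tested. LMNB1 (chromosome 5, 126776623 to 126837020), Lamin B1, was at 349, 346 and 342 CPM in VEH. It was at 172, 166 and 174 CPM in SLO (log2 fold change −1.02 with an SE of 0.0384, adjusted p = 3.16e-19), with tight replicates in both groups. LMNB2 fell too, from 320.0 ± 6.33 to 182 ± 6.48 CPM (−0.81), as did the lamina-associated TMPO (−0.56), while SUN1 and SUN2, which couple the nucleus to the cytoskeleton, rose (0.39 and 0.26). Repair genes differed by pathway. Of 28 double-strand break repair genes 15 fell and 2 rose, and the end-joining subunits XRCC5 and XRCC6 (Ku80 and Ku70) went from 838 ± 15.2 to 521 ± 15.5 and from 725 ± 11.7 to 474 ± 4.03 CPM. Base excision repair, the pathway of OGG1, had 9 falls and 6 rises among 19, including LIG3, its ligase (45.9 to 22.4 CPM, log2 fold change −1.03, adjusted p = 1.5e-13), and UNG (122 to 81.9 CPM, log2 fold change −0.57, adjusted p = 1.71e-12).

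Targets of p53 rose nearly as a whole. Of 25 tested, 23 rose and 1 fell (median log2 fold change 1.16). CDKN1A (chromosome 6, 36676460 to 36687337), the cyclin-dependent kinase inhibitor p21, was at 112, 91.2 and 80.9 CPM in VEH and 428, 428 and 414 in SLO (log2 fold change 2.16 with an SE of 0.0641, adjusted p = 8.79e-22), with the VEH libraries more spread than the SLO libraries and far below them. MDM2 (chromosome 12, 68808177 to 68845544), the ubiquitin ligase that degrades p53, was at 166, 175 and 156 CPM in VEH. Its SLO libraries lay at 427, 417 and 425 CPM (log2 fold change 1.36 with an SE of 0.0442, adjusted p = 9.58e-21), all well above. TP53I3, a quinone oxidoreductase, went from 22.3 ± 1.41 to 99.7 ± 2.36 CPM (2.16 on the log2 scale), the death receptor FAS from 4.0 ± 0.651 to 22.9 ± 1.3 (2.53), and ZMAT3 from 50.3 ± 4.0 to 136 ± 10.1 (1.43). The fall was PLK2, a polo-like kinase, from 868 ± 25.2 to 517 ± 15.2 CPM (log2 fold change −0.75, adjusted p = 1.03e-15). In the BCL2 family 8 of 13 rose and none fell. These were the death-promoting BH3-only genes PMAIP1 (16.6 to 44.6 CPM), BCL2L11 (12.4 to 36.3), BMF and BBC3, the pore formers BAX and BAK1, and the protective BCL2L1 (154 to 209.6) and MCL1 (389.9 to 454). Other inhibitors of cyclin-dependent kinases were split, since CDKN2B rose from 62.1 ± 9.22 to 82.2 ± 3.1 CPM (log2 fold change 0.41, adjusted p = 3.49e-06) while CDKN2A, which encodes p16, fell from 101 ± 3.45 to 79.6 ± 0.776 (log2 fold change −0.35, adjusted p = 6.77e-08) and CDKN2C from 70.2 ± 6.15 to 40.1 ± 2.17 (log2 fold change −0.80, adjusted p = 2.35e-12).

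**Figure D3:**
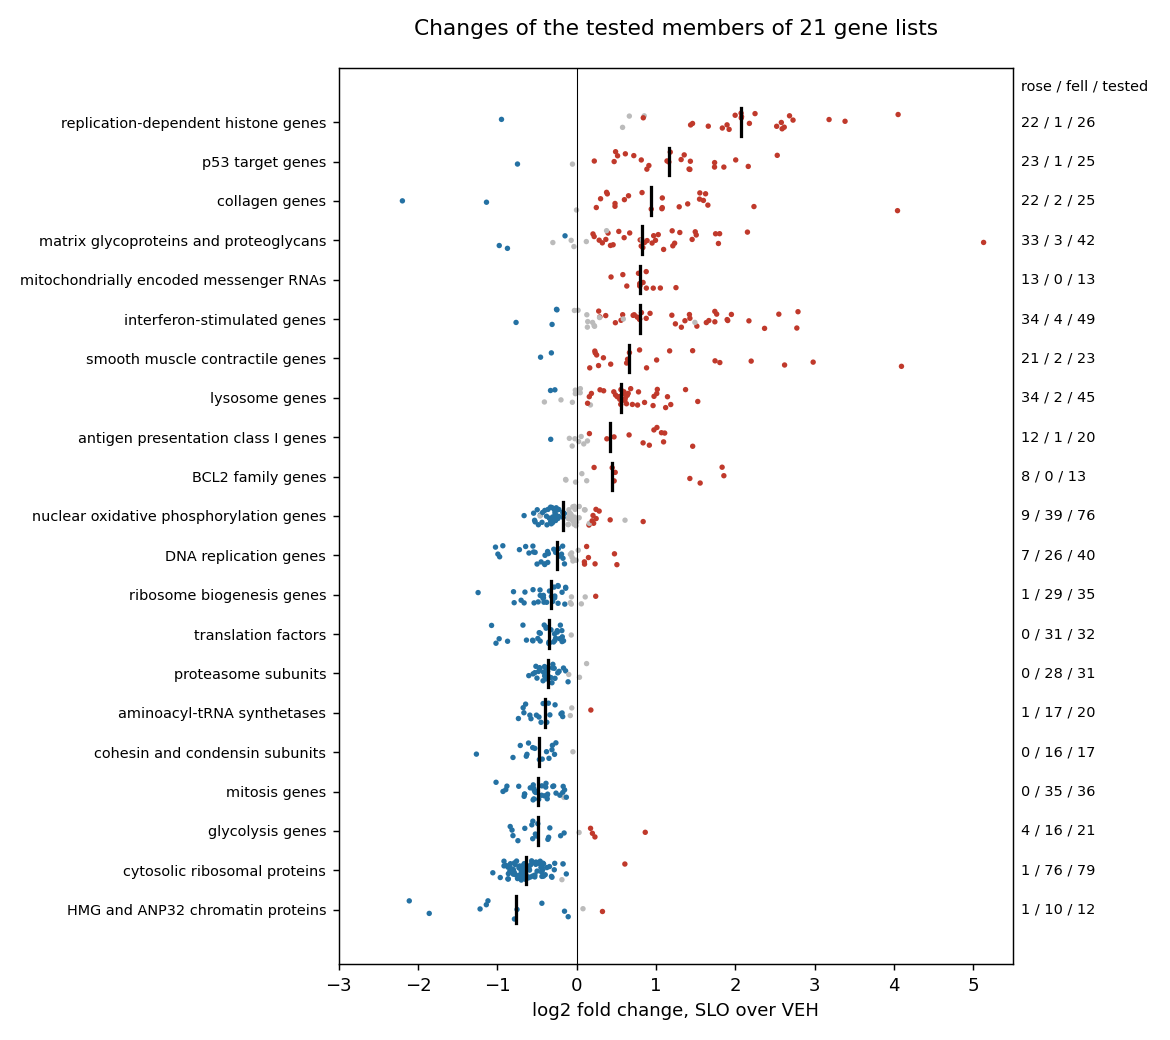
Each point is a tested member of 1 of 21 gene lists, placed by its log2 fold change in SLO over VEH, red if called higher, blue if called lower and grey if neither; the black bar is the list's median and the numbers at the right count members that rose, fell and were tested. Lists at the top lie mostly right of 0 and lists at the bottom mostly left, with H4C3, PLK2 and COL8A1 among the single points on the opposite side of their list.

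Genes of protein synthesis fell in nearly every group. Of 79 cytosolic ribosomal proteins 76 fell (median −0.64), and their summed level was 31005 to 33250.2 CPM in VEH and 20122 to 20934 in SLO. RPL3 was at 859, 801 and 829.7 CPM in VEH and 461, 450.2 and 458 in SLO (log2 fold change −0.86, adjusted p = 2.2e-17), and RPL36A, at 11.05, 10.3 and 10.7 and 13.1, 20.3 and 15.4 CPM, was the rise (log2 fold change 0.61, adjusted p = 0.000168). Translation factors had 31 falls and no rise among 32 (median −0.35), with EIF4B, a helicase cofactor, at 685, 636 and 666 CPM in VEH and 316, 295 and 334 in SLO (log2 fold change −1.07, adjusted p = 2.1e-18). Ribosome biogenesis genes had 29 falls among 35 and 1 rise, RRN3, with FBL, the methyltransferase of ribosomal RNA, going from 133 ± 4.08 to 55.9 ± 2.66 CPM (log2 fold change −1.24, adjusted p = 2.64e-19). Host genes of small nucleolar RNAs had 13 falls and 2 rises (SNHG12 and EPB41L4A-AS1) among 20, the falls including SNHG29 (273 to 173 CPM) and GAS5 (143 to 92.7). Of the aminoacyl-tRNA synthetases 17 of 20 fell and HARS1 rose.

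Genes of protein folding and degradation moved in both directions. Proteasome subunits had 28 falls and no rise among 31 (median −0.37), for example PSMC3 (−0.60 on the log2 scale) and PSMA7 (−0.14). Heat shock proteins had 7 rises and 10 falls among 19. The cytosolic chaperones HSP90AA1 (4909, 5159 and 5763 CPM in VEH and 3427, 2988 and 3169 in SLO), HSPA8 and HSP90AB1 fell, whereas the small heat shock protein CRYAB rose from 6.73, 5.19 and 6.69 CPM in VEH to 34.5, 33.0 and 40.6 in SLO (log2 fold change 2.53, adjusted p = 5.42e-19). Lysosome genes rose, 34 of 45, with 2 falls, CTSC and CD63 (median 0.56). Their summed level was 3491 to 3632 CPM in VEH and 4984 to 5217 in SLO. NEU1 (chromosome 6, 31857659 to 31862905), lysosomal sialidase, was at 52.9, 49.4 and 53.4 CPM in VEH and 155, 147 and 147 in SLO (log2 fold change 1.53 with an SE of 0.0479, adjusted p = 3.74e-21), and the groups were far apart. PSAP (chromosome 10, 71816298 to 71851251), the precursor of the saposins that assist sphingolipid breakdown, was at 419, 383 and 395 CPM in VEH and 820.1, 793 and 806 in SLO (log2 fold change 1.02 with an SE of 0.0405, adjusted p = 1.04e-18). GLB1, which encodes the beta-galactosidase read out as a senescence marker, went from 36.1 ± 0.505 to 52.6 ± 1.36 CPM (log2 fold change 0.54, adjusted p = 6.98e-09), the sphingolipid enzyme ASAH1 from 36.2 ± 2.03 to 78.6 ± 2.8 (1.12), and the cholesterol carrier NPC2 from 37.4 ± 1.34 to 82.4 ± 1.31 (1.14). Autophagy genes were split 11 to 10 among 29, with the LC3 family members MAP1LC3B (82.2 to 161 CPM, log2 fold change 0.97, adjusted p = 1.2e-17) and GABARAPL1 (34.7 to 77.7 CPM, log2 fold change 1.16, adjusted p = 5.16e-16) higher, and RB1CC1 and ATG13, partners of ULK1 in its kinase complex, lower (−0.38 and −0.28).

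Glycolytic and mitochondrially encoded transcripts moved in opposite directions. Of 21 glycolysis genes 16 fell and 4 rose (median −0.49), and their summed level was 21705 to 22102 CPM in VEH and 14571 to 14981 in SLO. GAPDH was at 6314, 6071 and 5939 CPM in VEH and 3935, 3890.3 and 3817 in SLO (log2 fold change −0.65 with an SE of 0.0404, adjusted p = 2.15e-14), ENO1, enolase, at 2583, 2536 and 2539.7 and 1470.2, 1430.2 and 1451 (log2 fold change −0.82, adjusted p = 5.7e-17), and LDHA, lactate dehydrogenase, at 5690.3, 5837 and 5832 and 4102, 3948 and 4152 (log2 fold change −0.51, adjusted p = 4.36e-12). No SLO library of the 3 genes reached a VEH library. All 13 mitochondrially encoded messengers rose (median 0.80), and mitochondrial transcripts took 1.30% to 1.61% of gene reads in VEH and 2.51% to 3.12% in SLO. MT-ND1 was at 988, 938 and 749 CPM in VEH and 1909, 2404 and 2052 in SLO (log2 fold change 1.25, adjusted p = 1.96e-13), with SLO replicate 2 the highest; the part of the mitochondrial share in other results was not tested. The nuclear genes of oxidative phosphorylation did not follow them, with 39 falls and 9 rises among 76 (median −0.17). Hypoxia response genes had 9 rises and 7 falls among 16. Both hypoxia-inducible alpha subunits rose, EPAS1 (chromosome 2, 46293667 to 46386697) from 169.7, 179.6 and 162 CPM in VEH to 518, 510.4 and 537 in SLO (log2 fold change 1.61 with an SE of 0.043, adjusted p = 6.51e-23) and HIF1A from 391.9 ± 8.56 to 717 ± 30.6 CPM (0.87), while SLC2A1, the glucose transporter they induce, fell (log2 fold change −0.35, adjusted p = 2.82e-08). In lipid metabolism INSIG1, which retains the sterol sensor in the endoplasmic reticulum, was at 192, 136 and 148 CPM in VEH and 66.8, 62.3 and 67.8 in SLO (log2 fold change −1.27, adjusted p = 1.05e-14), and the desaturase SCD went from 622 ± 80.6 to 337 ± 5.92 CPM (log2 fold change −0.89, adjusted p = 5.97e-14).

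**Figure D4:**
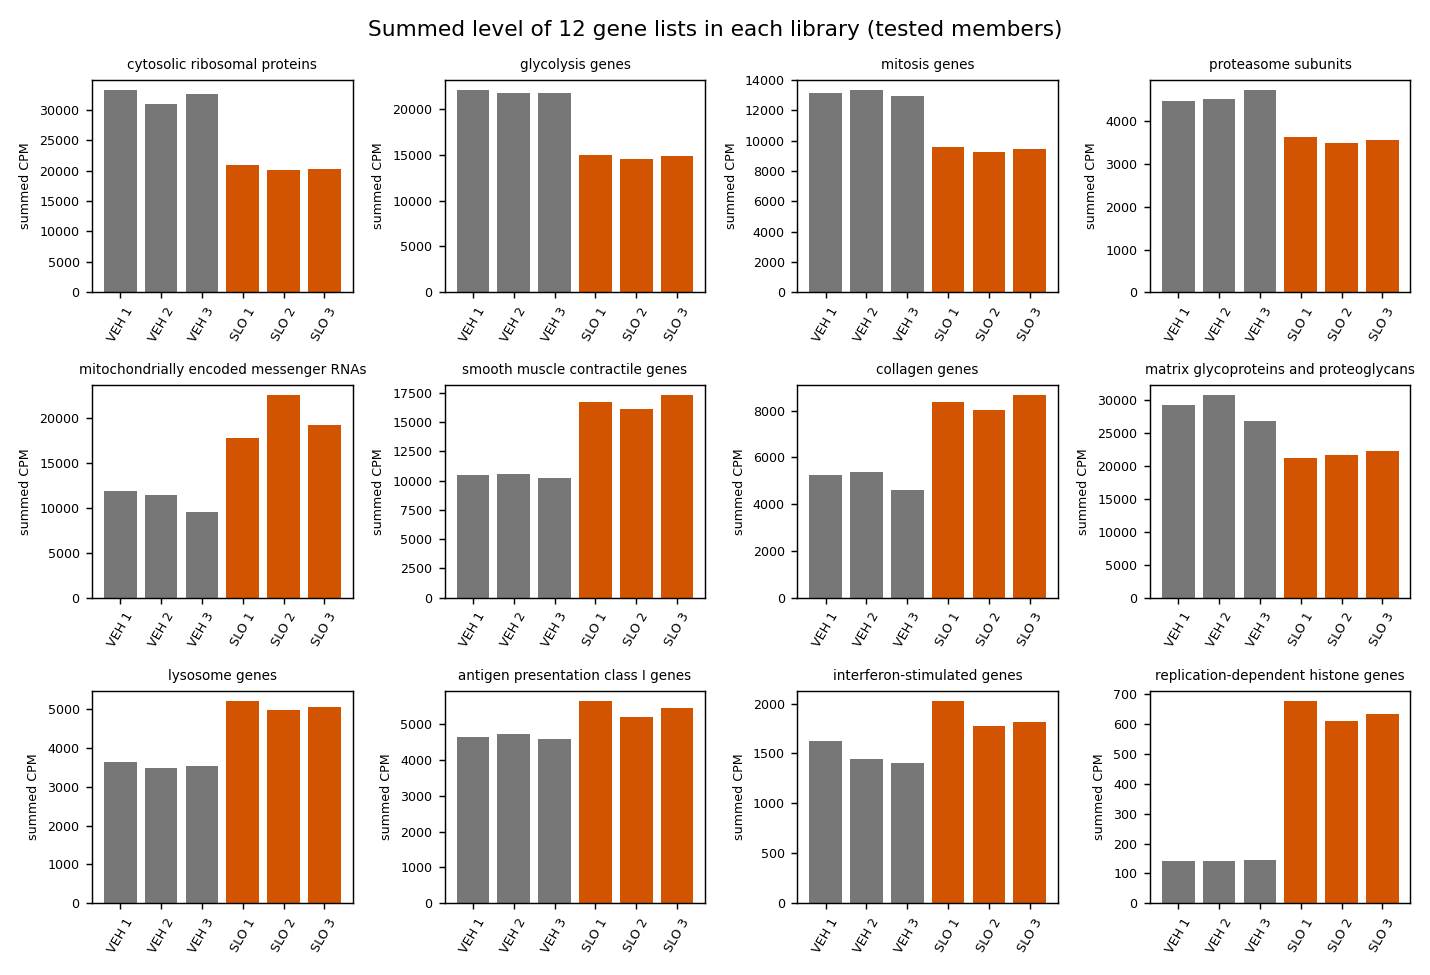
Bars give the summed CPM of the tested members of 12 gene lists in each of the 3 VEH (grey) and 3 SLO (orange) libraries, with axes that start at 0. The ribosomal protein, glycolysis, mitosis and proteasome sums are lower in every SLO library, the glycoprotein sum, which holds FN1, is lower as well, and the other sums are higher, with the first VEH library highest of its group for interferon-stimulated genes.

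Innate immune genes rose, in part from low levels. Of 49 interferon-stimulated genes 34 rose and 4 fell, with a median of 0.79. With at least 10 counts in every library 28 of 38 rose. TRIM22 (chromosome 11, 5689697 to 5737089), an antiviral ubiquitin ligase, was at 6.03, 5.91 and 6.58 CPM in VEH and 41.3, 42.5 and 43.8 in SLO (log2 fold change 2.78 with an SE of 0.0787, adjusted p = 2.74e-22), with tight replicates in both groups. ISG15, the ubiquitin-like modifier, was at 5.52, 4.53 and 5.01 CPM in VEH and 16.04, 14.8 and 16.1 in SLO (log2 fold change 1.63, adjusted p = 6.57e-14), without overlap. IFI44 was at 3.94, 1.51 and 1.72 CPM in VEH and 9.26, 7.71 and 7.05 in SLO (log2 fold change 1.76, adjusted p = 1.08e-08), with VEH replicate 1 the highest of its group. The same library stood highest for IFIT1 (14.2, 7.55 and 7.0 CPM in VEH and 26.8, 20.5 and 19.9 in SLO) and IFI6 (16.4, 8.47 and 6.06 and 44.1, 29.3 and 22.4), and without it the log2 fold changes went from 1.24 to 1.62 and from 1.67 to 2.16. Without that library the list had 38 rises and 3 falls. SLO replicate 1 was likewise the highest of its group for these 3 genes. The falls were IFITM2, DTX3L, EIF2AK2 and ADAR, the last an RNA-editing enzyme (354, 343 and 339 CPM in VEH and 287, 269.7 and 279 in SLO, log2 fold change −0.31, adjusted p = 1.3e-07).

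The core of the interferon-stimulated response element was searched as GAAANNGAAA on both strands of the 250 bases before the start. It was found in 23 of the 37 interferon-stimulated genes that matched the promoter table (62.2%). The share was 3.07% of all promoters and 2.31% of the promoters of tested genes. ISG15 holds overlapping copies from −113 to −104 and from −107 to −98 (chr1:1013247-1013496, plus strand) and IFI44 a single copy, on the opposite strand, from −18 to −9 (chr1:78649539-78649788, plus strand). Both windows are free of GENCODE exons, and capitals mark the motif.

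ISG15: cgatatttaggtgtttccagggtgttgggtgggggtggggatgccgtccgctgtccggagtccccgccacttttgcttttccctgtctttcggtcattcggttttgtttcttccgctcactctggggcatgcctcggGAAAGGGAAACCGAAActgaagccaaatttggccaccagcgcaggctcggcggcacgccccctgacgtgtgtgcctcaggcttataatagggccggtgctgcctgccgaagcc

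IFI44: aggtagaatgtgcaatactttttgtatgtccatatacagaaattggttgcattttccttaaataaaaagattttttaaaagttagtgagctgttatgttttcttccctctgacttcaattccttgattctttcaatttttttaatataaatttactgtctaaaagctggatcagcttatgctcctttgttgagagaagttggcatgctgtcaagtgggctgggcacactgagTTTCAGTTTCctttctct

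Antigen presentation on MHC class I rose with these genes, with 12 rises among 20 and 1 fall, PSME1. B2M, the light chain shared by all class I molecules, was at 359, 335 and 339.7 CPM in VEH and 749, 694 and 725 in SLO (log2 fold change 1.07 with an SE of 0.0432, adjusted p = 1.4e-18), and HLA-B at 64.8, 52.5 and 49.9 and 163, 148 and 149 (log2 fold change 1.46, adjusted p = 3.07e-18). Each SLO library was above each VEH library for both. In a list of sensors of foreign nucleic acids and their adaptors, which also held the endotoxin receptor TLR4, 8 of 12 rose and 1 fell (MAVS). The rises included STING1, the adaptor of cytosolic DNA sensing (13.8, 12.1 and 13.8 CPM in VEH and 36.5, 39.1 and 40.3 in SLO, log2 fold change 1.54, adjusted p = 3.06e-17), and TLR4 (7.56, 9.65 and 11.2 and 37.8, 38.9 and 40.9, log2 fold change 2.03, adjusted p = 7.45e-18). Among 37 cytokines and chemokines only 18 passed the filter, 13 rose and 3 fell (9 and 3 of 13 with at least 10 counts in every library). IL18 was at 1.59, 2.49 and 2.51 CPM in VEH and 9.63, 12.0 and 10.6 in SLO (log2 fold change 2.28, adjusted p = 7.82e-14), CXCL8 at 4.19, 4.86 and 4.02 and 14.8, 13.5 and 11.7 (log2 fold change 1.63, adjusted p = 8.59e-13), and IL11, a fibrogenic cytokine of the IL6 family, fell (43.8, 45.8 and 48.4 and 25.6, 28.2 and 27.8, log2 fold change −0.76, adjusted p = 7.32e-12). Of 12 complement genes 8 rose and none fell (7 of 10 rose with at least 10 counts in every library). C3, the central component, went from 1.67 ± 0.451 to 7.73 ± 0.692 CPM (log2 fold change 2.23, adjusted p = 3.39e-12). A list of insulin-like growth factor binding proteins, their ligands, receptors and proteases had 8 rises among 11 and 2 falls, IGF2 and PAPPA, with IGFBP4 going from 37.8 ± 3.3 to 112 ± 3.0 CPM (log2 fold change 1.57, adjusted p = 2.65e-20). The call of PAPPA was lost without SLO replicate 1 (adjusted p = 0.159) and without VEH replicate 1 (adjusted p = 0.117).

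Signalling genes moved by branch. In the Notch pathway 10 of 18 rose and 3 fell, with the ligand JAG1 at 18.2, 23.0 and 19.2 CPM in VEH and 237, 228 and 246 in SLO (log2 fold change 3.56), the target HES1 at 10.9, 11.8 and 7.89 and 32.9, 34.4 and 39.0 (log2 fold change 1.82, adjusted p = 5.5e-14), and RBPJ, the DNA-binding partner of Notch, lower (log2 fold change −0.62, adjusted p = 1.52e-13). The BMP list had 14 rises and 3 falls (SMAD1, SMAD5 and NOG) among 20. Among the 17 with at least 10 counts in every library, 12 rose and 3 fell. The call of SMAD1 was lost without SLO replicate 2 (adjusted p = 0.0832). The ligand BMP4 went from 11.4 ± 0.987 to 41.8 ± 3.46 CPM (log2 fold change 1.86, adjusted p = 4.35e-18), the target ID1 from 31.5 ± 2.86 to 74.1 ± 4.68 (log2 fold change 1.23, adjusted p = 1.63e-15), and the inhibitor NOG, noggin, fell from 24.3 ± 0.754 to 9.08 ± 1.54 (log2 fold change −1.42, adjusted p = 1.55e-13). Immediate early genes were divided, with 11 rises and 7 falls among 20, as were genes of ERK feedback, with 9 rises and 4 falls among 16. EGR1 was at 154, 134 and 112 CPM in VEH and 48.2, 50.0 and 45.3 in SLO (log2 fold change −1.47 with an SE of 0.118, adjusted p = 6.51e-12), all SLO libraries below all VEH libraries, and FOSL1 fell from 108 ± 7.73 to 56.8 ± 6.42 CPM (log2 fold change −0.92, adjusted p = 6.78e-14), while ATF3, a stress-induced repressor, rose from 11.8 ± 0.904 to 41.2 ± 2.98 (log2 fold change 1.82, adjusted p = 1.97e-17). The ERK-dependent factors ETV1 and ETV4 fell by 1.02 and 1.52 on the log2 scale, and the phosphatases DUSP1 and DUSP6 rose by 0.68 and 0.30.

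Receptor tyrosine kinases had 16 rises and 11 falls among 31. KIT (chromosome 4, 54657267 to 54740783), the stem cell factor receptor, was at 55.9, 57.1 and 55.5 CPM in VEH and 193, 181 and 199.5 in SLO (log2 fold change 1.77 with an SE of 0.0455, adjusted p = 3.19e-23), with little spread in either group. EPHA4, an ephrin receptor, rose from 4.06 ± 0.389 to 23.1 ± 1.6 CPM (log2 fold change 2.51, adjusted p = 1.82e-18). EGFR fell from 155 ± 14.4 to 85.0 ± 6.15 CPM (log2 fold change −0.86, adjusted p = 4.9e-14), MET from 639 ± 8.02 to 436 ± 10.8 (log2 fold change −0.55, adjusted p = 2.66e-12), and AXL, a receptor for apoptotic cells through GAS6, from 1066 ± 13.4 to 571 ± 15.2 (log2 fold change −0.90, adjusted p = 9.16e-18), all without overlap. Among phagocytosis genes 16 of 26 rose and 4 fell, or 2 fell without SLO replicate 1 or replicate 2. MFGE8 (chromosome 15, 88898683 to 88913468), which bridges dying cells to the vitronectin receptor, was at 151.4, 146 and 144 CPM in VEH and 497, 494 and 482 in SLO (log2 fold change 1.74 with an SE of 0.0394, adjusted p = 2.94e-24). Among purinergic and calcium handling genes 16 of 29 rose and 4 fell. ITPR1, a calcium release channel, was at 6.79, 6.7 and 7.26 CPM in VEH and 29.9, 30.4 and 28.3 in SLO (log2 fold change 2.09, adjusted p = 8.14e-18), the ATP-gated channel P2RX4 at 10.3, 9.06 and 7.83 and 19.1, 19.7 and 18.4 (log2 fold change 1.08, adjusted p = 3.71e-11), and PLCB4, a phospholipase upstream of the calcium release channels, fell from 379.9, 406 and 395 CPM in VEH to 168, 195 and 185 in SLO (log2 fold change −1.11, adjusted p = 5.56e-18).

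Growth factor and stress pathways held rises and falls together. Of 22 growth factors 13 rose and 5 fell, with HBEGF, an EGF receptor ligand, at 100.1, 120.0 and 129 CPM in VEH and 230.0, 218 and 223 in SLO (log2 fold change 0.94, adjusted p = 9.17e-15), and NRG1, neuregulin 1, at 60.8, 70.2 and 68.0 and 33.4, 30.6 and 32.0 (log2 fold change −1.05, adjusted p = 1.64e-15). TGF-beta pathway genes had 10 rises and 5 falls among 20, with the receptor TGFBR1 going from 133 ± 3.43 to 243 ± 12.2 CPM (0.87 on the log2 scale) and SMAD4, the shared mediator, from 56.5 ± 0.545 to 41.0 ± 2.47 (−0.46). Among 21 YAP and TEAD target genes and their regulators, ANKRD1 included, 5 rose and 10 fell, against 7 and 7 with scaling by library size only. Of these, CCN2 rose from 586 ± 44.6 to 783 ± 51.3 CPM (log2 fold change 0.42, adjusted p = 1.55e-08) and CCN1 fell from 1293 ± 54.4 to 1018 ± 39.7 (log2 fold change −0.34, adjusted p = 3.24e-08). WNT pathway genes had 16 rises and 5 falls among 29 (11 and 5 of 23 with at least 10 counts in every library). WNT5B, a non-canonical ligand, fell from 85.5 ± 5.75 to 34.7 ± 1.13 CPM (log2 fold change −1.30, adjusted p = 2.87e-18). Targets around AKT, mTOR and FOXO were split 13 to 10 among 32. SESN3, a sestrin that restrains mTORC1, was at 1.02, 1.31 and 0.731 CPM in VEH and 10.1, 9.83 and 9.64 in SLO (log2 fold change 3.29, adjusted p = 4.83e-16), and IRS1, the insulin receptor adaptor, at 109, 111 and 109 and 59.7, 56.3 and 61.0 (log2 fold change −0.90, adjusted p = 1.72e-16), each without overlap. NF-kappaB genes had 11 rises and 2 falls among 17, with the feedback inhibitor TNFAIP3 going from 6.95 ± 0.597 to 14.2 ± 0.674 CPM (log2 fold change 1.04, adjusted p = 1.64e-10).

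Integrated stress response genes had 15 rises and 7 falls among 24. Its central factor ATF4 fell from 248 ± 8.65 to 186 ± 3.87 CPM (log2 fold change −0.41, adjusted p = 1.07e-09) and its target STC2, a secreted glycoprotein, rose from 457 ± 28.0 to 733 ± 11.6 (log2 fold change 0.68, adjusted p = 2.27e-14). Endoplasmic reticulum chaperones had 10 rises and 6 falls among 20, with HSPA5 (BiP) going from 1229.8 ± 55.1 to 1086 ± 54.1 CPM (−0.18 on the log2 scale). Of 24 NRF2 targets 11 rose and 4 fell. FTH1, the ferritin heavy chain that stores iron, was at 344, 321 and 326 CPM in VEH and 606, 599.5 and 606 in SLO (log2 fold change 0.87, adjusted p = 1.5e-17), and HMOX1, haem oxygenase 1, at 7.37, 6.76 and 7.63 and 17.9, 15.7 and 20.01 (log2 fold change 1.29, adjusted p = 6.1e-12), both above VEH in every library. The metal-binding MT2A was at 192, 185 and 201 CPM in VEH and 105, 95.6 and 99.7 in SLO (log2 fold change −0.95, adjusted p = 2.76e-17), the steeper of the 2 falls among 4 metallothioneins that passed the filter of 9 listed. Cholesterol synthesis genes had 13 falls and 7 rises among 24, and the lipid droplet and PPAR list 12 and 7 among 21. Tubulins had 8 rises and 3 falls among 14, and TUBA1A rose from 72.7 ± 2.57 to 276 ± 14.4 CPM (log2 fold change 1.92, adjusted p = 4.83e-24) while TUBB fell from 2776 ± 65.3 to 2080.1 ± 26.5 (log2 fold change −0.42, adjusted p = 1.76e-10).

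Markers of other cell types were mostly at low levels. Of 15 neuron markers 8 passed the filter, among them ELAVL3, MAP2 and NEFH, which had at most 7 counts in a VEH library and passed only through SLO-treated libraries. With at least 10 counts in every library 4 were tested and 3 rose, while STMN2, DCX and ELAVL4 had no count in any of the 6 libraries. INA, a neuronal intermediate filament, was at 94.6, 104 and 112 CPM in VEH and 252, 236 and 242 in SLO (log2 fold change 1.23, adjusted p = 5.89e-19). NEFH, the heavy neurofilament, was at 0.19, 0.46 and 0.0522 CPM in VEH and 6.78, 5.36 and 5.39 in SLO (log2 fold change 4.69). Summed neuron marker counts were 1661 to 2341 in VEH and 4079 to 4654 in SLO, most of them INA. Of 16 astrocyte and oligodendrocyte markers 7 passed the filter, and 9 had at most 10 counts in every library. AQP4 and MAG had no count in any of the 6, and GFAP had at most 5. Of the 7 tested, 4 rose and 1 fell. GJA1, connexin 43, went from 192 ± 3.42 to 369.9 ± 19.2 CPM (log2 fold change 0.94, adjusted p = 1.91e-17). The fall was ALDH1L1, with 32 to 50 counts in VEH and 25 to 33 in SLO. Its call was lost in DESeq2, in every limma setting and with library size scaling only. It was also lost without SLO replicate 1 or 3 and without VEH replicate 1 or 3. Of 12 endothelial markers 7 passed the filter, and only 1, not called, had at least 10 counts in every library. Of the 7, 3 rose, each from at most 9 counts in a VEH library, and 2 fell. All 3 rises passed the filter only through SLO-treated libraries, where they were higher, so they are not read as a result. The falls were TIE1, with 22 to 36 counts in VEH and 8 to 13 in SLO, and ROBO4, with 33 to 48 and 6 to 15. KDR, a VEGF receptor, was 1 of the 3 rises. It went from 0.522 ± 0.0508 to 5.42 ± 0.515 CPM (log2 fold change 3.37). The part of these marker levels in other results was not tested.

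Genes of drug handling rose, 13 of 19 tested with 1 fall, ABCC4. ABCB1, the efflux pump P-glycoprotein, was at 31.6, 34.8 and 33.5 CPM in VEH and 164, 148 and 158 in SLO (log2 fold change 2.23 with an SE of 0.0514, adjusted p = 3.01e-24), with no overlap. CYP1B1, a target of the aryl hydrocarbon receptor, was at 30.3, 36.8 and 27.9 CPM in VEH and 108, 105 and 114 in SLO (log2 fold change 1.79, adjusted p = 2.36e-19), and the receptor itself, AHR, at 22.5, 26.0 and 26.4 and 64.0, 58.6 and 58.3 (log2 fold change 1.27, adjusted p = 2.17e-16). Of 29 tested genes linked to neurodegeneration 18 rose and 7 fell. The lipid transporter ABCA7 was at 9.65, 11.2 and 9.19 CPM in VEH and 38.6, 43.8 and 41.4 in SLO (log2 fold change 2.05, adjusted p = 4.5e-19), the beta-secretase BACE1 went from 13.3 ± 1.08 to 40.5 ± 1.65 CPM (log2 fold change 1.61, adjusted p = 1.67e-17), progranulin, GRN, from 145 ± 7.79 to 264 ± 10.3 (log2 fold change 0.87, adjusted p = 1.49e-16), and APP from 879 ± 37.0 to 1058 ± 33.2 (log2 fold change 0.27, adjusted p = 2.11e-06). BACE2 fell from 48.9 ± 5.17 to 21.1 ± 1.91 CPM (log2 fold change −1.21, adjusted p = 2.67e-14).

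Genes of the compounds' targets and their partners had 3 rises and 3 falls among 10, no more than ULK2 (0.68 on the log2 scale) in size. By kind of gene, long noncoding RNAs had 457 rises and 215 falls among 1621 (28.2% and 13.3%), and protein-coding genes 4247 and 4394 among 12476 (34.0% and 35.2%). Among 20 tested members of a list of well-known long noncoding RNAs 7 rose and 4 fell. MEG3 was at 374, 389 and 377 CPM in VEH and 650.2, 1052 and 749 in SLO (log2 fold change 1.10, adjusted p = 2.43e-11), and NEAT1, the scaffold of paraspeckles, at 262, 268 and 274 and 361, 589.6 and 433 (log2 fold change 0.78, adjusted p = 5.76e-08), with SLO replicate 2 the highest for both. By position, chromosome 19 had the lowest share of rises of the autosomes (255 of 1051, 24.3%). Its 242 tested ZNF genes had 27 rises (11.2%) and 82 falls (33.9%), with a median log2 fold change of −0.121. Over all tested genes 32.9% rose and 32.1% fell, so their share of falls was near that of all genes and their share of rises was lower. On the other nuclear chromosomes the share of rises ran from 28.6% (chromosome 2) to 40.5% (chromosome 20). These shares are descriptions without a test.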

How the data were processed

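RNA from HMC3 cells treated with VEH or SLO was sequenced from poly(A)-selected, strand-specific libraries, with 3 libraries per group. After trimming (Trimmomatic 0.38) and alignment to GRCh38 (STAR 2.7.1a), the authors deposited raw read counts per gene from the stranded setting. They also deposited a TPM table (a length-scaled share of transcripts), used here only for alternatives. The annotation release is not given in the sources used here. Lines for reads that were unmapped, multimapping, outside genes or ambiguous were left out of library sizes; 0.883% to 0.972% of reads were unmapped in VEH and SLO. No column lacked a sample. Samples were grouped by the treatment labels.

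The main test was run with edgeR 4.0.16 in R 4.3.3, using filterByExpr, TMM factors and a quasi-likelihood fit of 3 group means to all 9 libraries, and p-values were adjusted by the Benjamini-Hochberg method. Counts were simulated for the same groups over 14727 genes, with 33 or 34 genes changed at each size and the same spread for all genes. Of genes with a log2 change of 0.5 in either direction 78.8% were recovered. For those lowered and raised by 1 it was 70.6% and 90.9%, and by 2 97.1% and 100%, while 7.03% of the calls were false. In the data 64.9% of genes were called and the spread was fitted per gene, so these rates need not hold there. Alternatives used DESeq2 (1.42.0), limma (3.58.1) on log2(TPM + 1) and log2(TPM + 0.1), other scaling and filters, a replicate block and single libraries left out.

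The 68 gene lists and the members described were chosen with earlier results of these data known, so list counts are descriptions and carry no test. Genes were named by rule: among those at 100 CPM or more, with adjusted p below 0.001 and no overlap, the 15 largest rises and falls and the 10 largest gains and losses in CPM; per list, the called members with the smallest p and the highest level, and preset anchors; and members against their list where 5 or fewer. Some genes that the rule names are not reported here. AHR, ASAH1, BACE1, BACE2, BAK1, BAX, BBC3, BMF, CD14, COL11A1, COL5A1, COL5A2, CSF1R, ELAVL3, ESPL1, FAS, IFI44, IFI6, LAMC1, LMOD1, MAP2, MYOCD, NPC2, NUSAP1, SPC24, SPC25, SRF, SYNPO2, TPM1, TREM2, ULK2, VCL and ZMAT3 were outside the rule and were named after their values were seen. Promoter sequences came from RefSeq (GRCh38.p14).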

Additional observations from a re-analysis of the deposited data

Results flagged for a closer look

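Groups of 3 libraries were too small for a check of single outlying libraries. Reads aligned outside annotated genes, which no comparison used, took 5.54% to 6.62% of reads in VEH and 6.64% to 8.38% in SLO, so that the lowest SLO library lay just above the highest VEH library.

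Among the 46817 genes below the expression filter, 20 had no count in any VEH library and more than 3 counts in every SLO library, whereas 1 gene had the opposite pattern. They were drawn to attention because the VEH libraries held none of these reads. HES2, a HES family transcription factor, had 13, 13 and 7 counts in SLO, GNG3, a neuronal G protein subunit, had 9, 14 and 11, CHGA, chromogranin A of secretory granules, had 11, 8 and 4, and CXCL11, an interferon-induced chemokine, had 8, 9 and 9. These genes were named after their values were seen, and no test was run on them.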

How the results depend on the processing

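Of 206 genes checked, 197 kept their direction and their side of the threshold in each of the 16 alternatives that tested them. The exceptions were CDK1, MAVS, NUSAP1, PAPPA, PCNA, PSMA7, SMAD1, THBS1 and ULK2. Not every gene named was among the 206. ALDH1L1 was not, and it lost its call in several alternatives, as described above. The interferon-stimulated list had 3 falls in DESeq2 and with library size scaling only, against 4 in the main test. KDR and NEFH were not tested with at least 10 counts in every library. CDK1, not called, ranged from −0.0154 (without SLO replicate 1) to 0.0462 (without SLO replicate 2) on the log2 scale when single libraries were left out, was at −0.0049 without VEH replicate 2, and was called higher with library size scaling only (0.0963). NUSAP1, not called, ranged from −0.583 (without SLO replicate 1) to 0.0507 (without SLO replicate 3). PCNA lost its call in 8 alternatives, THBS1 in 11, PAPPA in 7 and SMAD1 in 3, and MAVS and PSMA7 with library size scaling only, and ULK2 with limma on log2(TPM + 1) without a filter; the cause was not tested. The number of called genes above 1 in absolute log2 fold change went from 1740 to 1028 (833 up, 195 down) with at least 10 counts in every library, where fewer genes were tested. It was 916 (756 up, 160 down) with limma on log2(TPM + 1), and 1093 (880 up, 213 down) with that pseudocount and no filter. Library size scaling only gave 5624 higher and 3870 lower calls, against 4843 and 4722. Leaving out single libraries gave 9015 to 9321 called genes, 4572 to 4752 higher and 4426 to 4606 lower, 1779 to 1901 large changes (1420 to 1557 up, 334 to 364 down) and 110 to 120 large changes among genes at 100 CPM or more. With at least 10 counts in every library, 2 microglia, 4 neuron and 1 endothelial markers were tested, with 2, 3 and 0 rises. Library size scaling only gave 5 rises among the nuclear lamina list and 5 among the compound target list, against 3 each. Medians of 67 lists were compared with the SD of each median between libraries. They moved by at least that SD in 167 comparisons and by less in 905. With limma on log2(TPM + 1) the median went from 0.793 to 0.509 for interferon-stimulated genes. It went from 0.94 to 0.654 for collagens and from 0.82 to 0.549 for matrix glycoproteins and proteoglycans.

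Same-numbered VEH and SLO libraries did not deviate together (r = 0.0333, 0.0449 and 0.00601), so the numbers were not taken to pair them. With a replicate block 9622 genes were called, 4877 higher and 4745 lower. Genes of low counts and small changes are the most limited by depth.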
